A study of Mus musculus with 20 samples.

Results

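The 37 immediate early genes described here were chosen by name, as genes usually counted among the first response to a stimulus, and matched by symbol in a table of 47729 genes measured in 20 RNA-seq libraries of whole mouse adrenal gland. All 37 were found, and all 37 passed the filter on low values (a normalised read count of at least 1 in at least 4 libraries). The libraries fall into 4 groups: 5 females and 6 males with the genotype label SCC::Cre_CTRL, called controls here, and 5 females and 4 males labelled SCC::Cre_BMAL1 KO, called Bmal1 KO. Both genotypes carry the SCC::Cre label; SCC refers to the side-chain cleavage enzyme (Cyp11a1) of steroidogenic cells, so the Cre is directed at the cortex and not at the medulla or the vessels. Control females were 1.5 to 3.4 months old, Bmal1 KO females 2.4 to 3.4, control males 2.9 to 4.7 and Bmal1 KO males 2.9 to 3.7. The labels do not state when in the day the glands were taken, how the mice were handled, which part of Bmal1 was removed or whether reads were counted by strand. The labels do not say that each library came from a separate mouse, so the p-values cover the spread from library to library, part of which may be technical.

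Immediate early genes are transcribed within minutes of a stimulus from factors already present in the cell, chiefly the serum response factor with its ternary complex partners and the cAMP-responsive factor CREB. Many of them encode transcription factors (the FOS, JUN, EGR and NR4A families), and others encode short-lived inhibitors that close the loop, such as MAP kinase phosphatases and proteins that destabilise messenger RNA. In the adrenal cortex, corticotropin acts through cAMP, angiotensin II through calcium and MAP kinases, and both are known inducers of FOS, EGR1 and NR4A1; in the medulla, the splanchnic nerve induces the same genes. Their messages can rise within minutes, a time scale on which the catching of a mouse and the removal of an organ also fall.

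The promoters of 6 members that the results below turn on are shown first. They are Fos, 4 genes that followed it from library to library, and Nr4a2, which had the widest gap between the sexes in controls. Each sequence is the 250 bases before a RefSeq transcript start on build GRCm38.p6, written 5′ to 3′ on the strand of the gene. Capitals mark TGACG or its complement CGTCA (the core of the CREB site), TGACGTCA (the full CREB site, which contains the core on each strand), the CArG box (the serum response element) and CACGTG (the E-box that CLOCK and BMAL1 bind).
Fos (chr12:85473640-85473889, plus strand): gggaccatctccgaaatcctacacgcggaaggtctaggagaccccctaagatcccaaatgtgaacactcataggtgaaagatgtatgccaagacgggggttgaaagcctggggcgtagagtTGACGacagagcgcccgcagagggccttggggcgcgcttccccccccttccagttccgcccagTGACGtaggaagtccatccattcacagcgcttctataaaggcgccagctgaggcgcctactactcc
Fosb (chr7:19310046-19310295, minus strand): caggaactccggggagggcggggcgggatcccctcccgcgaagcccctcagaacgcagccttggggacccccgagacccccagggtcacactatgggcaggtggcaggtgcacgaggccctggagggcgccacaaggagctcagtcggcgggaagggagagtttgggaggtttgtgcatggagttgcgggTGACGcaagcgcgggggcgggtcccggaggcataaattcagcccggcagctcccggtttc
Btg2 (chr1:134079156-134079405, minus strand): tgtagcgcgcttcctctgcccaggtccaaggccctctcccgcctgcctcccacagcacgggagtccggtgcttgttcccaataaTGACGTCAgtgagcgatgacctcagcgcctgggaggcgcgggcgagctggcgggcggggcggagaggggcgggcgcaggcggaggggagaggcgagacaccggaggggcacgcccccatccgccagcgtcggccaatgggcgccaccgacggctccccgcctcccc
Dusp1 (chr17:26508473-26508722, minus strand): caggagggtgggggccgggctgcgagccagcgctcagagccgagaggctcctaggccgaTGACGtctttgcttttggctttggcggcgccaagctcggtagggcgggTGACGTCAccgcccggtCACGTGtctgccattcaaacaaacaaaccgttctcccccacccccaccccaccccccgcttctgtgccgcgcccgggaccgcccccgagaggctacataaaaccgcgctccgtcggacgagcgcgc
Zfp36 (chr7:28379229-28379478, minus strand): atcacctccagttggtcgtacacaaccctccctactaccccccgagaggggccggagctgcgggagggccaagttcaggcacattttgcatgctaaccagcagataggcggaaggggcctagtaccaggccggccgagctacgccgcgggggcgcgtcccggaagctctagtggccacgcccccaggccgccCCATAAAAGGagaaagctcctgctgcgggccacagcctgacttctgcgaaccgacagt
Nr4a2 (chr2:57124004-57124253, minus strand): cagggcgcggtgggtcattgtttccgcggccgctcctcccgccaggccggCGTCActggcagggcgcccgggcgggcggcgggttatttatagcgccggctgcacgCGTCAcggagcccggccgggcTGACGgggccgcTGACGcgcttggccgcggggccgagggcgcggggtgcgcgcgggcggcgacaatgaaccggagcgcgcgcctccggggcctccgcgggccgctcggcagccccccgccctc
The Fos window holds TGACG with its first base at -129 and at -66 from the start, and Fosb holds it at -60. Btg2 and Dusp1 hold the full site at -166 and -143, and Dusp1 holds an E-box at -126. Zfp36 has no CREB core in this window and a CArG box at -58, while the window of Nr4a2 has 4 CREB cores, between -200 and -111.

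Windows were used for 31 of the 37 members. None was found for Fosl1, Egr3, Ier2, Myc and Arc. Windows on chromosome 18, which holds Egr1, were left out of the members' set but not of the background. Searched on both strands, TGACG was present in 18 of the 31 (58.1%), against 19.8% of the 27025 genes with a window. The full TGACGTCA was present in 3 (Dusp1, Btg2 and Maff, 9.68% against 1.77%) and the CArG box in 3 (Egr2, Dusp5 and Zfp36, 9.68% against 1.62%). GCGNGGGCG, the letters bound by the EGR proteins, was present in 13 (41.9% against 5.33%), TGANTCA, those of the AP-1 dimer, in 1 (Zfp36l1, 3.23% against 7.82%), and CACGTG in 8 (25.8% against 6.86%). The median share of G and C was 64.8% in the members' windows and 52.4% in all windows, and the shares were not adjusted for it. These counts describe letters in the windows only.

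Between 13421985 and 26742820 reads per library could be recovered from the deposited values. Whole-gene counts of Arntl (Bmal1) were not used to check the genotype labels, which do not state the part of Bmal1 removed. Arntl was 833 to 1010.0 in Bmal1 KO females and 494 to 860.3 in control females. In males Arntl was 841 to 995 in Bmal1 KO and 365 to 1092 in controls. Its targets did separate the genotypes, with Nr1d1 at 160 to 450.1 in the 9 Bmal1 KO libraries and 1091 to 3409.9 in the 11 controls. Control male 6 stood apart from the other control males: it was lowest for Nr1d1 (1091, others from 1644), Dbp (1316.5, others from 1706.5) and Fkbp5 (1139, others from 2275), and highest for Arntl (1092, others up to 664) and Star (386386, others up to 265043). Its mitochondrially encoded transcripts summed to 1.44 times the median of its group. Member calls that ended without it, or without control female 3 described below, are given beside the result. All of the 6 cortex markers and 8 chromaffin markers were detected (cortex sums of 605921 to 1231190 normalised reads), and 5 kidney markers summed to between 0 and 3.82 normalised reads.

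Per kilobase of exon, the immediate early genes spanned a wide range of abundance in these adrenals. Junb, a JUN partner in the AP-1 dimer, averaged 5834 normalised reads per kilobase over all 20 libraries, followed by Rgs2, an inhibitor of G protein signalling (5143), the orphan nuclear receptor Nr4a1 (4755), the antiproliferative gene Btg2 (4337) and Fos (3132). The growth arrest gene Gadd45b (2467), Jun (2118) and Egr1 (1945) came next. At the other end stood Dusp2 (12.2), an inducible MAP kinase phosphatase first known from lymphocytes, Fosl1 (9.97), Egr3 (7.19), the neuronal activity gene Npas4 (5.08) and Egr4 (2.11). Egr4 had 3 recovered reads or fewer in 9 of the 20 libraries and 0 in 2, and Npas4 had 3 in 1 library, so that these values are at the limit of detection. In 8 members an exon overlaps an exon of a gene on the opposite strand (Fosl1 with Ccdc85b, Jun with Junos, Junb with Prdx2, Jund with Gm11175, Dusp1 with Ergic1, Dusp5 with AC137853.2, Zfp36 with Gm44710, Zfp36l1 with Gm26669), and reads of the pair cannot be told apart without the strand setting. In whole glands, fewer cells of a type and less RNA per cell cannot be told apart either.

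**Figure D1:**
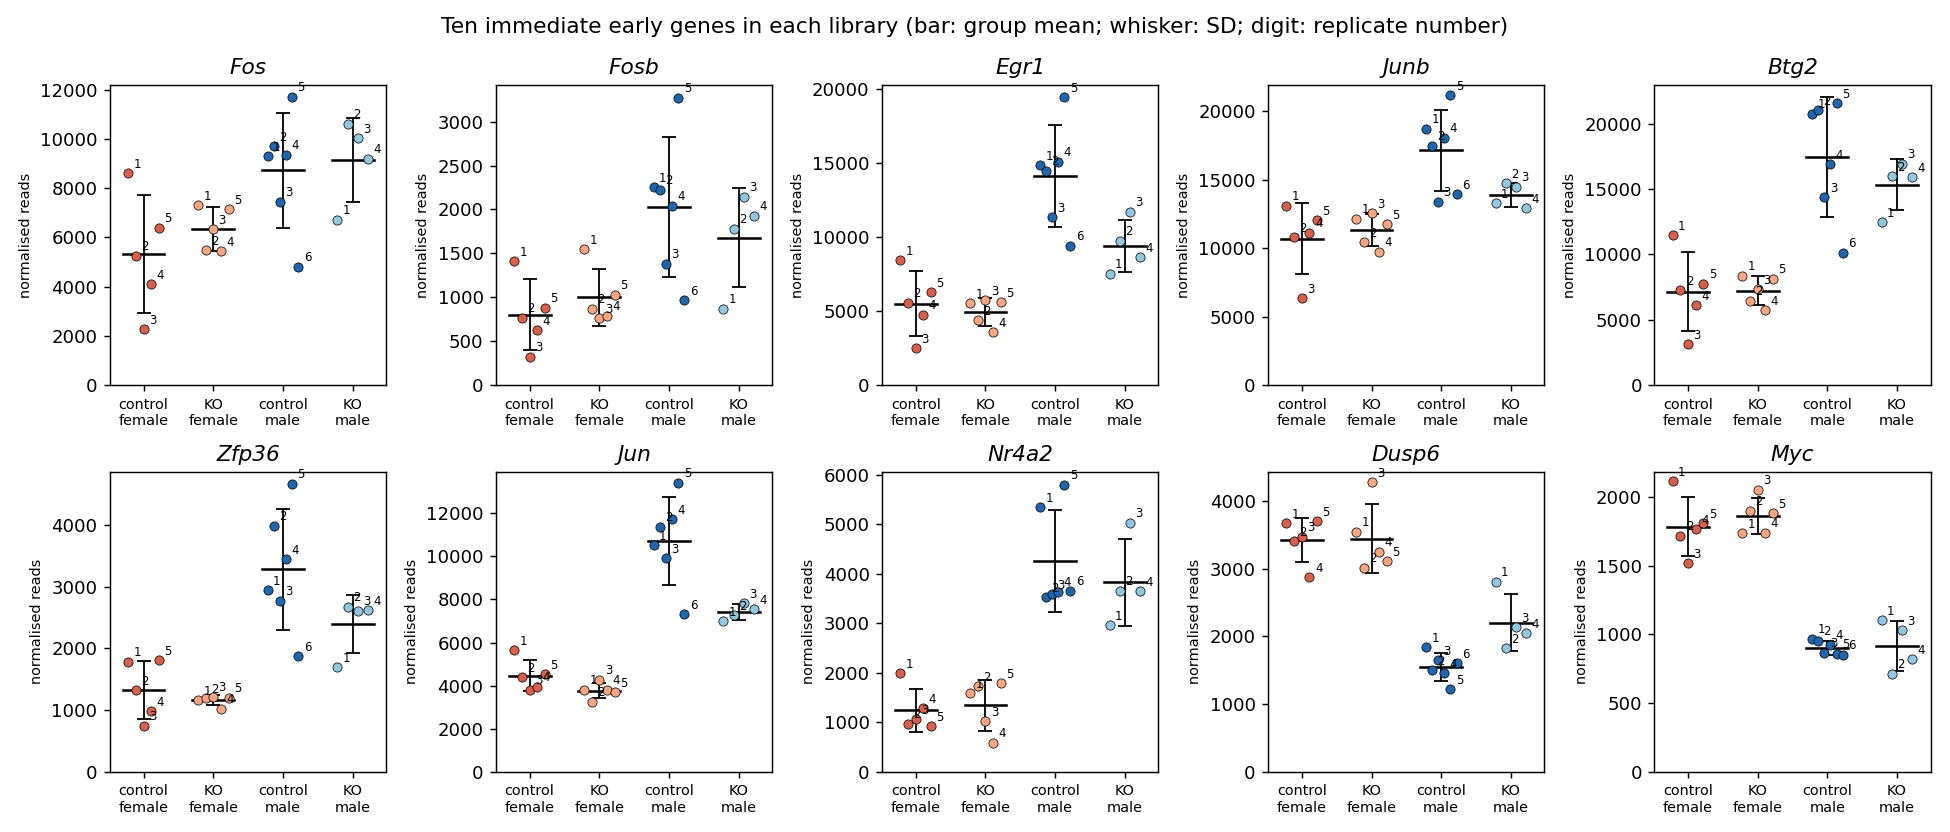
Normalised read counts (y axes, linear from 0) of 10 immediate early genes in each of the 20 libraries, by group (x axes). Points are libraries with their replicate number, bars are group means and whiskers are SD. Control female 3 has the lowest Fos, Fosb, Egr1, Junb, Btg2 and Zfp36 value of all 20 libraries, and control male 5 has the highest.

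Fos varied more between libraries of a group than between genotypes. Fos read 8604, 5266, 2269, 4097 and 6405 in control females 1 to 5, and 7309, 5481, 6343, 5451 and 7139 in Bmal1 KO females 1 to 5. Among the 6 control males Fos was lowest at 4813, had a median of 9335 and was highest at 11731. It read 6726, 10620.3, 10042 and 9203 in Bmal1 KO males 1 to 4. The genotypes overlapped in both sexes, and the lowest value, that of control female 3, lay 1.21 log2 units below the median of its own group.

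The spread inside groups was wide for most members. Among the 32 members with a mean of at least 100 normalised reads, the median within-group standard deviation was 0.35 on the log2 scale, against 0.17 over the 12234 genes with such a mean. It lay above that of the median gene in 27 members and above the 90th percentile in 13. The widest spreads were those of Socs3 (0.85), a feedback inhibitor of cytokine receptors, Egr2 (0.75), the synaptic gene Arc (0.71), Fosb (0.61), the stress-induced factor Atf3 (0.53) and Fos (0.47). The narrowest were those of Zfp36l1 (0.14), which destabilises messenger RNA, Fosl2 (0.15) and Klf2 (0.16), an endothelial transcription factor.

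Some libraries lay at the edge of their group for many members at once. Control female 3 was the lowest of the 5 control females for 26 of the 37 members and the highest for 0, while it was lowest for 17.0% of all genes tested. Its median member lay 0.52 below the group median on the log2 scale, where the median of all genes lay at 0. It was at least 2-fold below its group's median for 9 members, against 4.38% of all genes: Fos, Fosb, Egr1, Egr2, Egr3, Egr4, Btg2, Arc and Npas4. Members at or near its group's median included Fosl2, Jund, Nr4a2, Dusp6 and Zfp36l1, and Gadd45g lay 0.33 above. In control female 3 the heat shock genes summed to 0.93 times the group median, the glucocorticoid receptor targets to 0.93 and the cortex markers to 0.95. The 4 neutrophil markers summed to 190 normalised reads there, 3.76 times the group median (control female 5 had 139.9, the other control females 40.6 to 50.5, and the libraries of the other groups 19.1 to 87.8), and the 6 lymphocyte markers to 70.2, 0.63 times the median. Their part in the low values was not tested.

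Control male 6 showed a more mixed pattern. It was lowest of the control males for 21 members (17.7% of all genes), with a median of 0.40 below on the log2 scale. It was at least 2-fold below for 5 (Fosb, Egr2, Egr4, Atf3 and Socs3), against 5.28% of all genes. It was nevertheless highest for Gadd45b (7177, others from 4031 to 6719) and Rgs2 (23994, others from 15683 to 21309). Nr4a1 was 25961 there, above the group median of 23403. The cAMP-responsive genes Sik1 (3427, others up to 3401) and Crem (1925, others up to 1503) were likewise highest in it. In this library Fos, Egr1 and Btg2 were thus low while Gadd45b, Rgs2, Sik1 and Crem were high.

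Control male 5 was the opposite case, highest of its group for 25 members (14.1% of all genes) and lowest only for Dusp6, with the median member 0.31 above on the log2 scale. It was at least 2-fold above for Egr3, Egr4 and Arc, where 3.37% of all genes were. Arc read 261 against a group median of 129.6. Control female 1 was highest for 17 members (25.5% of all genes). Control female 5 was at least 2-fold above its group's median for 5 members (6.53% of all genes): Egr3, Dusp2, Npas4, Socs3 and the small MAF protein Maff. In the Bmal1 KO groups, female 4 was lowest for 20 members (21.1% of all genes) and male 1 for 19 (29.3%). Over all members and libraries, 14 values lay at least 2-fold above and 23 at least 2-fold below their group's median. Of all genes, 2.19% to 7.94% per library lay as far above and 2.74% to 6.77% as far below. Taken as shares of all member values, the 2 member counts did not exceed these ranges. Values 2-fold from the median were thus not more frequent among members than among all genes.

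**Figure D2:**
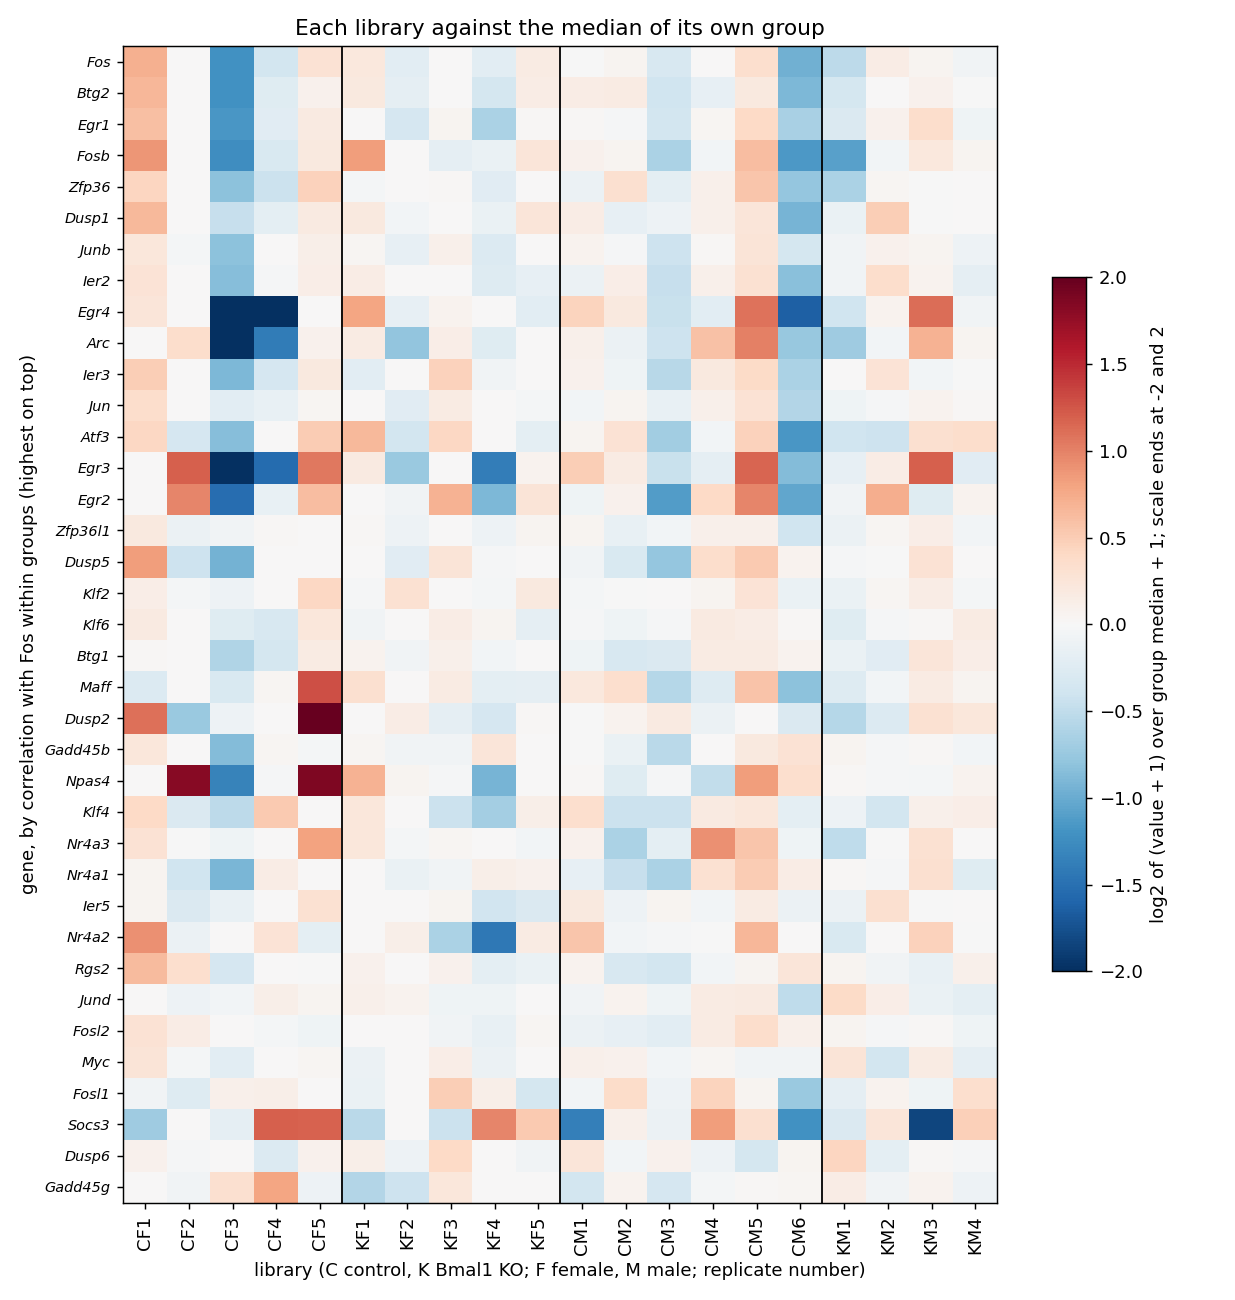
Each of the 37 members (rows, ordered by correlation with Fos within groups) in each of the 20 libraries (columns), as the log2 ratio of its value plus 1 to the median of its own group, with the colour scale ending at -2 and 2. The columns of control female 3 (CF3) and control male 6 (CM6) are blue over most rows, while that of control male 5 (CM5) is red, and the rows at the bottom (Dusp6, Gadd45g, Socs3) do not follow.

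These deviations were shared by a core of genes. To describe it, every gene was regressed on log2 Fos with the 4 group means removed, so that neither sex nor genotype enters. Of the 26611 genes tested, 22 (0.0827%) were called at an adjusted p under 0.05, 21 (0.0789%) with a positive and 1 (0.00376%) with a negative slope, and 11 of these were immediate early genes. The members called, of 36 tested without Fos, were Btg2, Egr1, Fosb, Zfp36, Dusp1, Ier2, Junb, Arc, Ier3, Egr4 and Jun, all with positive slopes. Btg2 changed by 0.92 log2 units for each log2 unit of Fos (SE 0.059, adjusted p 4.98e-08), Egr1 by 0.87 (SE 0.071, adjusted p 1.78e-06) and Fosb by 1.22 (SE 0.11, adjusted p 7.48e-06). The shallowest slope among those called was that of Jun (0.37, SE 0.067, adjusted p 0.0293), and the steepest was that of Egr4 (1.76, SE 0.30), which rests on few reads. Single libraries ended 4 of these calls: without control female 3 the adjusted p was 0.0504 for Junb and 0.0596 for Ier3, and without control male 6 it was 0.203 for Jun and 0.139 for Egr4. Leaving out control female 1 also ended the calls of Jun (0.162), Egr4 (0.0653) and Ier3 (0.06), control male 5 those of Jun (0.0788) and Egr4 (0.0551), and control female 4 (0.0559) or control male 2 (0.0526) that of Jun. The median slope was 0.40 over the 36 members and 0.00 over all genes, and 34 of the 36 were above 0, against 50.6% of all genes. An unadjusted p under 0.05 was reached by 26 members, against 10.5% of all genes. All these values share the library and its size factor. Among cell type markers, the median slope was -1.09 over 5 adipocyte genes (0 above 0) and 0.38 over 6 macrophage genes (6 above 0). It was 0.39 over 6 lymphocyte genes (4 above 0) and -0.24 over 3 neutrophil genes (0 above 0). In the other marker lists the median lay between -0.41 (kidney, 1 gene tested) and 0.16 (fibroblast and capsule). In the marker lists 0 were called, and their part in the shared deviations was not tested.

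Expressed as correlations of the same deviations over the 20 libraries, r with Fos was 0.97 for Btg2, 0.95 for Egr1, 0.93 for Fosb and 0.93 for Zfp36, which encodes the mRNA-destabilising protein tristetraprolin. It was 0.90 for Dusp1, the nuclear phosphatase of p38, JNK and ERK, 0.88 for Ier2 and 0.88 for Junb. Spearman's rho was 0.91 for Btg2, 0.84 for Egr1 and 0.73 for Junb. In permutations of libraries within groups (100000 resamples, two-sided, Benjamini-Hochberg over 36 relations) 15 members passed for r and 18 for rho. The permutations were run for the members only, so these counts have no share of all genes beside them. The unadjusted permutation p was 1e-05 for Btg2, the smallest these permutations can give (adjusted 9e-05), and the adjusted p was 0.000154 for Junb. Without the 2 libraries farthest from the median of Fos, control female 3 and control male 6, r was 0.93 for Btg2, 0.91 for Egr1, 0.90 for Fosb, 0.85 for Dusp1 and 0.77 for Junb, and the median over members went from 0.55 to 0.49.

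**Figure D3:**
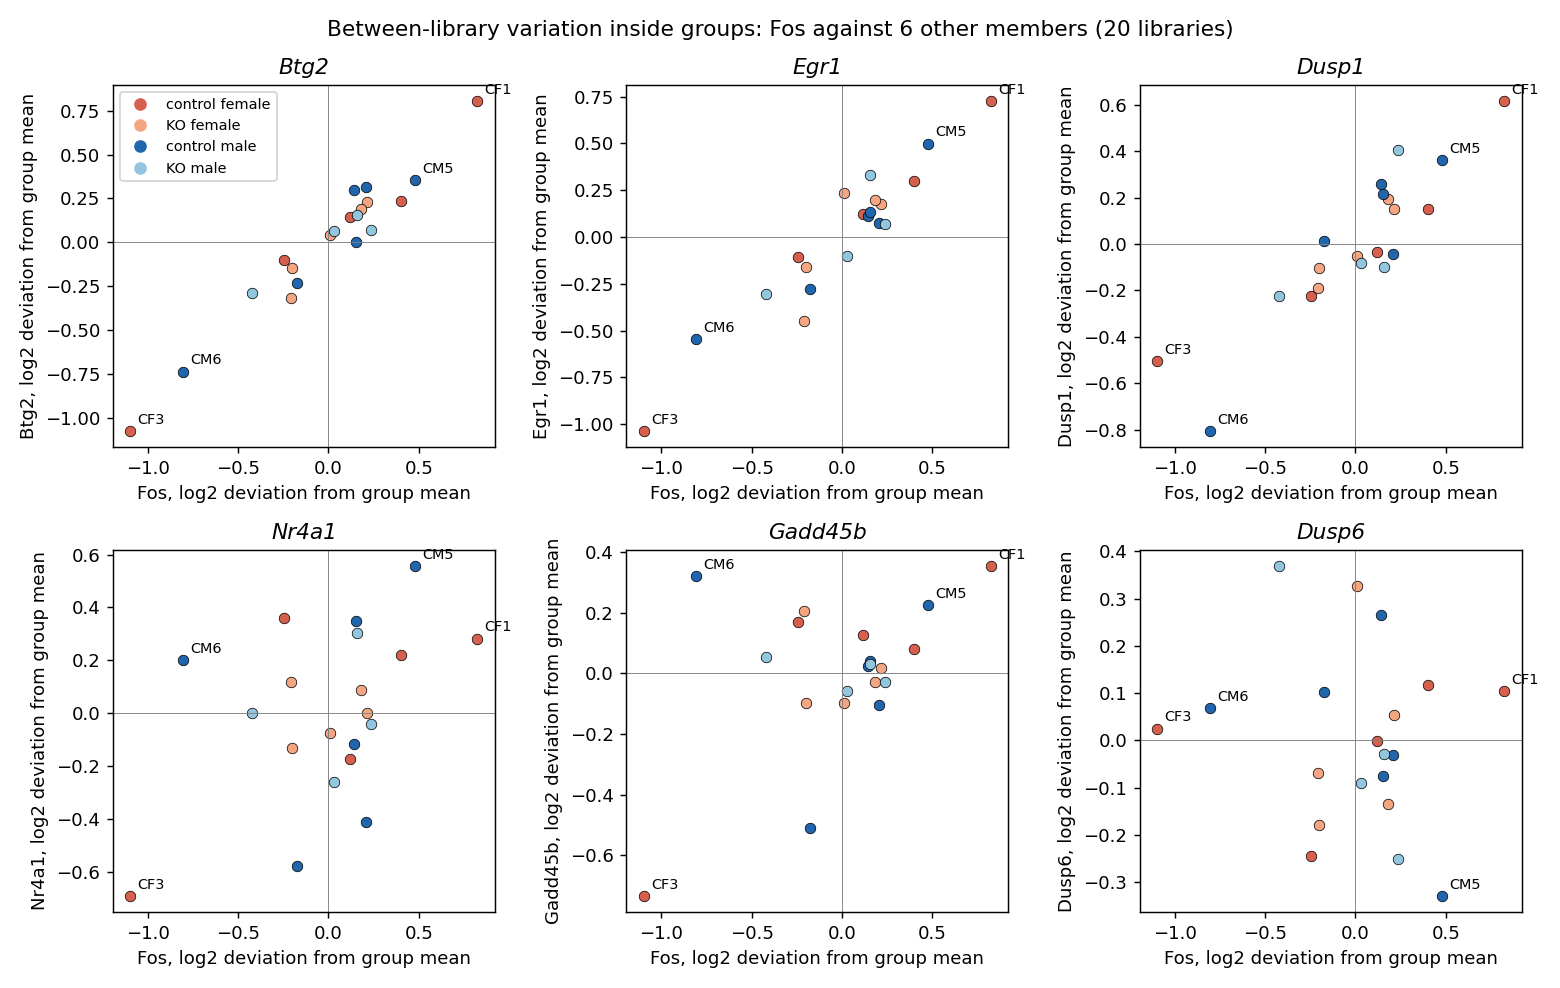
Deviations of 6 members (y axes) against that of Fos (x axes), both in log2 units from the group mean, with 1 point per library coloured by group. Btg2, Egr1 and Dusp1 rise with Fos over the whole range (r of 0.97, 0.95 and 0.90), Nr4a1 and Gadd45b scatter, with control male 6 (CM6) high although its Fos is low, and Dusp6 shows no relation (r of -0.15).

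Other members had lower correlations with Fos. The nuclear receptors of the NR4A family, which drive steroidogenic genes, had r of 0.45 (Nr4a1), 0.42 (Nr4a2) and 0.45 (Nr4a3), with adjusted permutation p of 0.209, 0.109 and 0.141. By rank, Nr4a3 passed (rho of 0.62, adjusted permutation p 0.0263), as did Klf2 (rho of 0.71, adjusted p 0.00789) and Maff (rho of 0.57, adjusted p 0.0356), none of which passed for r. For Nr4a1 r was 0.73 over the 10 female libraries and 0.16 over the 10 male libraries, for Gadd45b 0.81 and -0.13, and for Rgs2 0.81 and -0.37; these pairs were not tested against each other. Dusp6, the cytoplasmic ERK phosphatase (-0.15), Gadd45g (-0.34), Socs3 (0.09), Fosl1 (0.23), Myc (0.29), Fosl2 (0.29) and Jund (0.30) showed no call. The remaining members lay between, from Ier5 (0.44) to Atf3 (0.78). Egr2, Egr3, Atf3 and Zfp36l1 passed in the permutations of r and were not called in the limma fit. The permutations were adjusted over 36 relations and the limma fit over 26611 genes, so the thresholds were unlike.

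By adjusted p, the 10 genes most like Fos were Btg2, Egr1, Fosb, Zfp36, Dusp1, Ier2, Junb, Ide, Plk2 and Pitpnc1, so 7 of the 10 were members. Plk2, another early gene and a polo-like kinase, had a slope of 0.69 and r of 0.86, and Pitpnc1 a slope of 0.83 and r of 0.86. Ide, the insulin-degrading enzyme, was the 1 gene called with a negative slope (-0.39, r of -0.89): it read 5267 and 5094 in control females 3 and 4 and 3307 to 3750 in the other control females. The call count depends on the extremes. Without control female 3 and control male 6 together, 5 members and 6 genes in all were called. That fit ended the calls of Arc and Ier2 (adjusted p 0.2995 for each), besides those of Junb, Ier3, Jun and Egr4. Without control female 3 alone 9 members and 83 genes were called, and without control male 6 alone 9 members and 16 genes. Within females alone or males alone 2 members were called in each.

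Sex was the comparison in which immediate early genes differed most. In controls, 19 of the 37 were called between females and males, against 26.4% of all genes tested: 17 were lower in females (12.9% of all genes) and 2 were higher (13.5% of all genes). Their median difference was -0.57 on the log2 scale, against -0.05 over all genes, and 7 of 37 lay above 0, against 46.0% of all genes. For 10 members the 5 female and 6 male values did not overlap (13.9% of all genes), 8 of them lower in females (6.61% of all genes) and 2 higher (7.32%). Control males were 2.9 months or older and control females 3.4 months or younger, so age differs between the sexes in part. With age as a covariate 15 members were called: Fos (adjusted p 0.209), Fosb (0.0672), Ier2 (0.0579) and Zfp36l1 (0.226) were no longer among them. The count over all genes fell as well in that fit and is given in the closing section.

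Markers of cell types differed between the sexes as well. In controls 4 of the 6 cortex markers were higher in females (Nr5a1 0.95, Hsd3b1 0.90, Mc2r 0.82 and Cyp21a1 0.53) and Cyp11a1 was lower (-0.69), with summed levels of 974333 to 1231190 in control females and 752399 to 1082560 in control males. The same 4 were higher in Bmal1 KO females, where Cyp11a1 was not called. None of the 8 chromaffin markers was called in controls, and Pnmt was higher in Bmal1 KO females (1.21). The glial marker Gfap was lower in females of both genotypes (-1.45 and -1.04), as was the endothelial marker Tek (-0.37 and -0.40). In Bmal1 KO, Kdr and Mrc1 were also lower and the B-cell markers Cd79a and Ms4a1 higher in females, and in controls Cd68 and S100a9 were higher. The part of these markers in the sex differences of the members was not tested.

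Among the AP-1 genes, Jun read 5634, 4399, 3805, 3954 and 4528 in control females 1 to 5. In control males Jun was lowest at 7320.3 in male 6, had a median of 10949 and was highest at 13424, so that the sexes did not overlap. Jun was 2.38-fold lower in females (-1.25 ± 0.12 SE on the log2 scale, adjusted p 1.33e-07). Junb was 1.63-fold lower (adjusted p 0.00112) without overlap, and Fosb was 2.62-fold lower (adjusted p 0.0035) with overlap. Fos was 1.73-fold lower (-0.79 ± 0.25 SE, adjusted p 0.0244). The Fos call rested on single libraries: adjusted p was 0.0819 without control female 3, 0.061 without control female 4 and 0.0583 without control male 5, and 0.00847 without control female 3 and control male 6 together. Maff, a small MAF protein of the same leucine zipper class, was 2.32-fold lower. Jund (-0.09), Fosl2 (-0.00), Atf3 (-0.07) and Fosl1 (-0.49, adjusted p 0.126) were not called, and Fosl1 was called without control male 6 (-0.64, adjusted p 0.0327).

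Of the EGR genes, which encode zinc-finger factors, Egr1 read 8442, 5557, 2487, 4742 and 6276 in control females 1 to 5. In control males Egr1 was lowest at 9399.9, had a median of 14655 and was highest at 19411, again without overlap. Egr1 was 2.69-fold lower in females (-1.43 ± 0.23 SE, adjusted p 9.59e-05). Egr2 (-0.29), Egr3 (-1.06, adjusted p 0.171) and Egr4 (-0.99, adjusted p 0.207) were not called.

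The widest difference between the sexes in controls was that of Nr4a2, also known as Nurr1. It read 1987, 970.4, 1058, 1282 and 923 in control females 1 to 5, and in control males between 3525 and 5801 with a median of 3649. Every control male value thus exceeded every control female value, and Nr4a2 was 3.49-fold lower in females (-1.80 ± 0.25 SE, adjusted p 1.74e-05). Nr4a1, also known as Nur77, was 2.11-fold lower (adjusted p 0.000229), with 6613 to 13719 in females and 15124 to 33195 in males. Nr4a3 had a difference of 0.28 in the other direction and was not called.

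The mRNA-destabilising proteins, the antiproliferative BTG pair and the IER, GADD45 and KLF genes were mixed. Zfp36 was 2.51-fold lower (adjusted p 0.00012) and Zfp36l1 1.18-fold (adjusted p 0.039). The Zfp36l1 call ended without any 1 of control females 2, 3, 4 and 5 and control males 1, 3, 4 and 5 (adjusted p 0.0599 to 0.1002). Btg2 was 2.57-fold lower (adjusted p 0.000219) and its relative Btg1 1.50-fold (adjusted p 0.00143). Ier3, an ERK-regulated survival gene, was 2.54-fold lower and Ier2 1.74-fold, while Ier5 had a difference of 0.09. Gadd45b was 2.22-fold lower (1556 to 3311 against 4031 to 7177), whereas Gadd45g had a difference of 0.00. Rgs2 (-0.28, adjusted p 0.143) was not called. Klf4, a zinc-finger factor, was 1.73-fold lower, and Klf2 (-0.15) and Klf6 (0.13) were not called.

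The MAP kinase phosphatases differed among themselves. Dusp5, a nuclear ERK phosphatase, was 2.46-fold lower in females (adjusted p 0.000335). Dusp1 (-0.35, adjusted p 0.196) and Dusp2 (-0.07) were not called, though Dusp1 was called without control male 6 (-0.51, adjusted p 0.022). Dusp6 was 2.22-fold higher in females (1.15 ± 0.11 SE, adjusted p 2.23e-07): it read 3664, 3403, 3467, 2875 and 3695 in control females 1 to 5, and 1220.1 to 1842 in control males. The growth regulator Myc was the other gene higher in females, at 1518 to 2115 against 854 to 967 (1.96-fold, adjusted p 2.58e-07). Neither of these overlapped between the sexes, and neither followed Fos within groups. Socs3 (0.54), Arc (-0.57) and Npas4 (-0.43) were not called.

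In Bmal1 KO adrenals, 12 of the 37 were called between the sexes, against 22.8% of all genes tested. The groups did not overlap for 18 members (20.7% of all genes), 13 of them lower in females (9.79%) and 5 higher (11.0%). The median difference was -0.29, against -0.07 over all genes, and 13 of 37 lay above 0, against 44.8% of all genes. The 9 that were lower in females (10.6% of all genes) were Jun, Egr1, Nr4a2, Ier3, Klf4, Btg2, Zfp36, Zfp36l1 and Gadd45b, and each was also called lower in control females. Nr4a2 was 3.03-fold lower, with 1586, 1727, 1023, 586 and 1787 in females 1 to 5 and 2959, 3654, 5034 and 3649 in males 1 to 4. Btg2 was 2.13-fold lower, Zfp36 2.03-fold, Jun 1.97-fold and Egr1 1.90-fold. Dusp6 (1.57-fold), Myc (2.06-fold) and Socs3 (3.42-fold) were higher (12.1% of all genes). Socs3 read 209, 306, 228, 605 and 441 in females and 99.6, 145, 33.7 and 171 in males, and its call ended without Bmal1 KO male 3 (1.28 on the log2 scale, adjusted p 0.0794). The call of Zfp36l1 ended without the same library (adjusted p 0.0517). That of Ier3 (adjusted p 0.0456) ended without any 1 of Bmal1 KO females 1, 2, 4 and 5, Bmal1 KO males 1 to 4, control female 2 and control males 1 and 2 (adjusted p 0.0515 to 0.118).

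Fos, Fosb, Junb, Nr4a1, Ier2, Dusp5, Btg1 and Maff were called between the sexes in controls and not in Bmal1 KO, and Socs3 in Bmal1 KO and not in controls. The difference between the 2 sex effects, which is the interaction of genotype and sex, was called for none of these 9. When the fit held the 2 Bmal1 KO groups only, 20 members were called, among them Fos (-0.52, adjusted p 0.0252), Junb, Nr4a1, Dusp5 and Maff. When it held the 2 control groups only, Fos (adjusted p 0.0686) and Zfp36l1 (adjusted p 0.0883) were no longer called in controls. No share of all genes is given beside these calls.

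**Figure D4:**
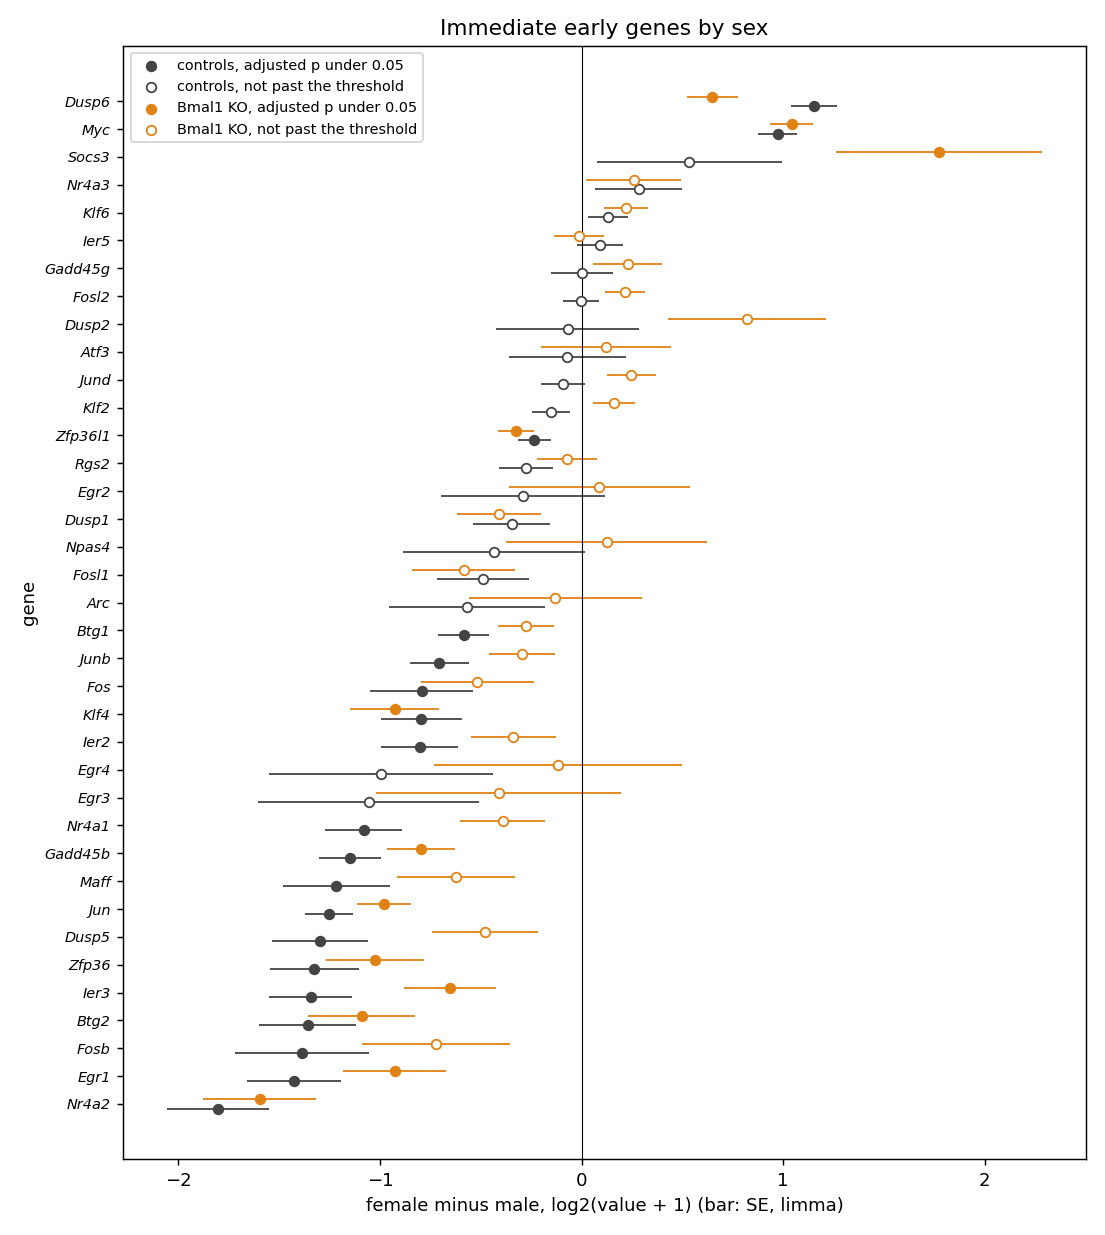
Female minus male difference of each member on the log2(value + 1) scale, in controls (black) and in Bmal1 KO (orange), with bars for the SE of the limma fit and filled points for an adjusted p under 0.05. Most points lie left of 0 in both genotypes, from Nr4a2 at -1.80 and -1.60 upward, while Dusp6 and Myc lie right of 0 in both.

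Loss of Bmal1 in females was followed by no called change in any of the 37, against 1.75% of all genes tested (1.12% higher and 0.635% lower). edgeR and DESeq2 on the recovered reads also called 0, and 4 members had an unadjusted p under 0.05 (Fosl2, Dusp5, Npas4 and Klf2; 11.7% of all genes). No member separated the 5 Bmal1 KO from the 5 control females (3.25% of all genes). The estimates were above 0 for 31 of 37, where 49.9% of all genes were, with a median of 0.18. That lean followed control female 3: without it 23 of 37 were above 0 and the median was 0.03. The Fos difference went from 0.37 ± 0.27 SE to 0.10 ± 0.22 SE without this library, Fosb from 0.42 to 0.13, and Npas4 from 1.06 to 0.61. Of the marker lists, the macrophage gene Mrc1 alone was called in this comparison (-0.59, adjusted p 0.00457). Egr1 went from -0.07 to -0.33 and Btg2 from 0.12 to -0.15.

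Dusp5 had the smallest p in females. It read 321, 135, 92.7, 181 and 180.1 in control females 1 to 5 and 277, 236, 332, 274 and 279.7 in Bmal1 KO females 1 to 5, so that only control female 1 overlapped the Bmal1 KO range. The difference was 0.73 ± 0.25 SE on the log2 scale (adjusted p 0.178). Without control female 1 it was 0.96 (adjusted p 0.024), and without control female 3 it was 0.52 (adjusted p 0.394).

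In males, 1 of the 37 was called between the genotypes, against 1.33% of all genes tested (0.763% higher and 0.567% lower), and no member separated the 4 Bmal1 KO from the 6 control males (3.07% of all genes). Dusp6 read 2806, 1826, 2132 and 2043 in Bmal1 KO males 1 to 4, and in control males was lowest at 1220.1, had a median of 1553 and was highest at 1842. The lowest Bmal1 KO value lay just under the highest control value. Dusp6 was 1.42-fold higher in Bmal1 KO males (0.50 ± 0.12 SE, adjusted p 0.0409). The call ended under several settings: adjusted p was 0.158 without Bmal1 KO male 1, and leaving out control males 2, 3, 4 or 5 or Bmal1 KO males 3 or 4 gave 0.0591 to 0.0953. It ended as well without control females 2 or 3 or Bmal1 KO females 1 or 4 (0.0505 to 0.0533), which enter only the shared estimate of spread. In females the same difference was 0.00 ± 0.12 SE.

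Jun missed the threshold in males by little. It read 6979, 7276, 7815 and 7556 in Bmal1 KO males 1 to 4 and 7320.3 to 13424 in control males, where control male 6 held the lowest value and the other 5 lay at 9924 or higher. The difference was -0.51 ± 0.13 SE (adjusted p 0.0514). Without control male 6, Jun was called (-0.61, adjusted p 0.0023), and so was Jund (-0.39, adjusted p 0.0388). edgeR (adjusted p 0.0378) and DESeq2 (adjusted p 0.00386) also called Jun. Without control female 3 and control male 6 together, Jun, Jund and Ier2 (-0.60, adjusted p 0.0264) were called lower in Bmal1 KO males and Dusp6 (adjusted p 0.0553) was not called.

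Estimates in males leaned the other way from those in females. They were above 0 for 10 of 37, where 50.0% of all genes were, with a median of -0.15, and 10 members had an unadjusted p under 0.05 (10.9% of all genes). Without control male 6 the median was -0.27, and without control male 5 it was -0.06 with 15 above 0. Egr1 was 7519, 9734, 11691 and 8645 in Bmal1 KO males, all under the control median of 14655, with a difference of -0.57 ± 0.25 SE (adjusted p 0.395). Gadd45b (-0.40), Ier3 (-0.48) and Ier2 (-0.46) lay below 0, and Klf4 (0.56), Zfp36l1 (0.27) and Ier5 (0.29) above 0; none was called. The Fos difference was 0.10 ± 0.27 SE. Of the 6 cortex markers, Star (-0.69) and Cyp11a1 (-0.71) were lower in Bmal1 KO males, with cortex sums of 605921 to 826836 against 752399 to 1082560 in control males, and their part in the members' differences was not tested.

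The interaction of genotype and sex was called for 0 of the 37 members, against 0.0301% of all genes tested (8 genes). edgeR and DESeq2 also called 0, and 6 members had an unadjusted p under 0.05 (Ier3, Dusp6, Nr4a1, Dusp5, Klf2 and Jund; 6.44% of all genes). The female effect exceeded the male effect for 30 of 37, where it did for 50.8% of all genes, with a median of 0.31. Without control female 3 the median was 0.16, without control male 5 it was 0.20, and without control male 6 it was 0.42. The widest estimates were those of Socs3 (1.24 ± 0.69 SE), Dusp2 (0.89 ± 0.53 SE), Egr4 (0.88 ± 0.83 SE) and Dusp5 (0.82 ± 0.36 SE). The 2 genotype effects use separate libraries, whereas each shares its control libraries with the sex comparison in controls.

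**Figure D5:**
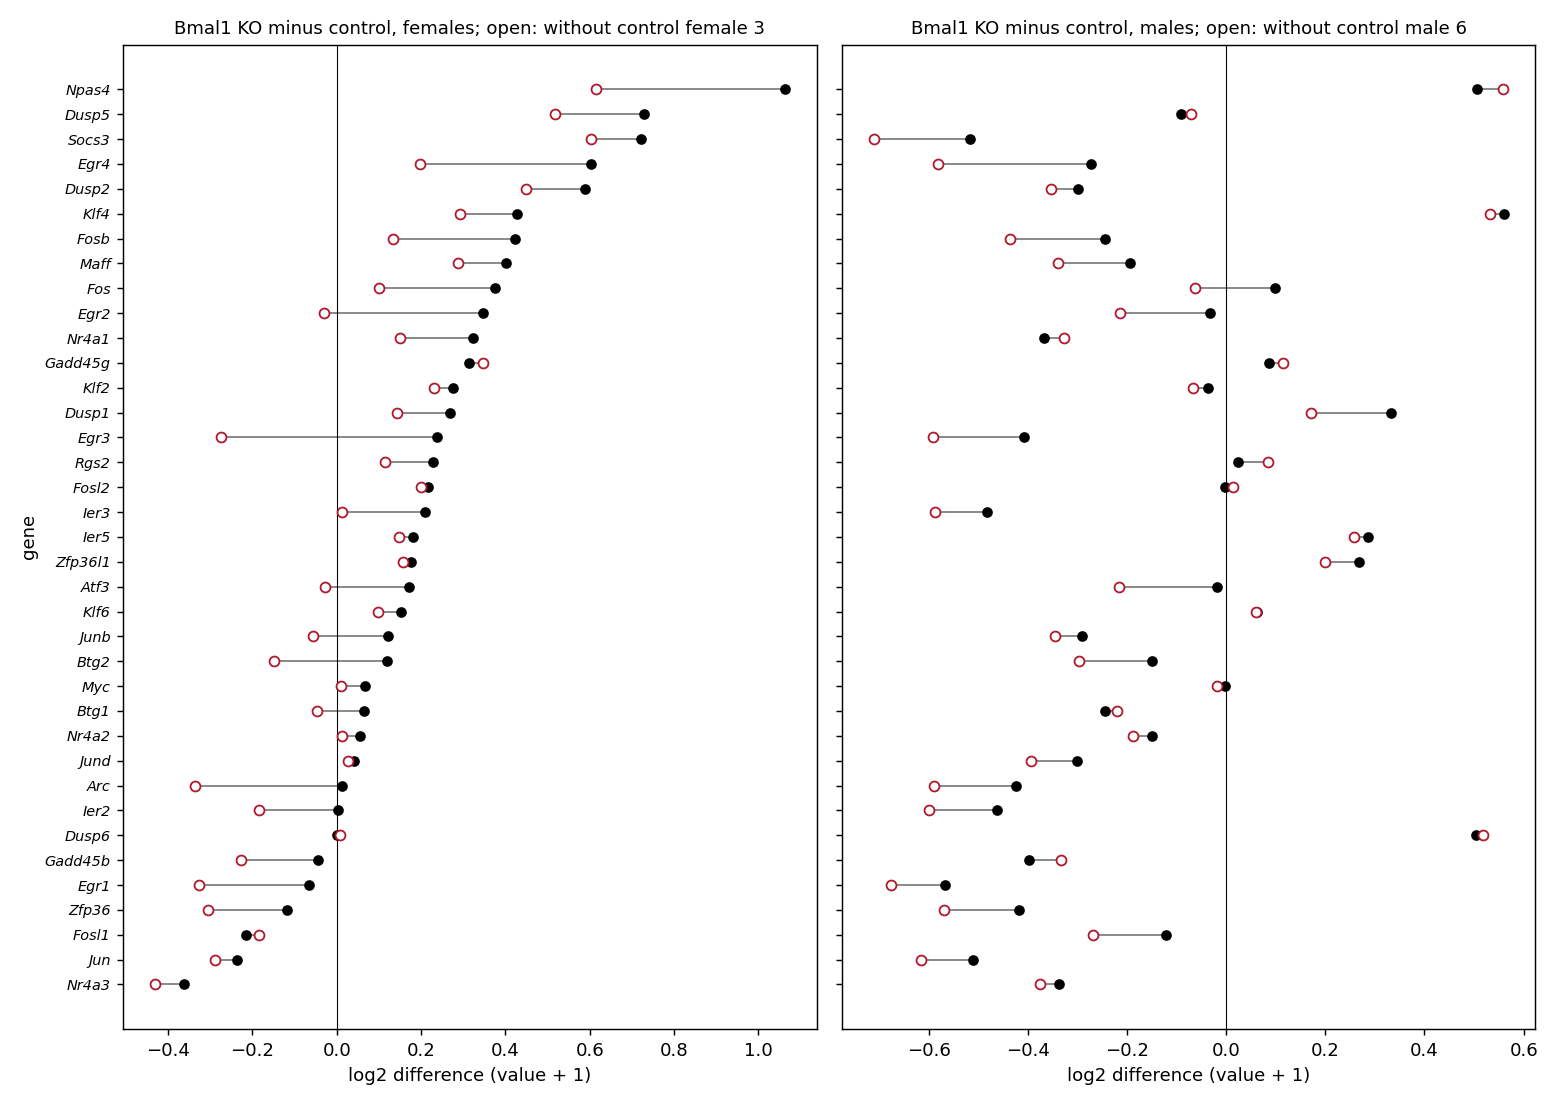
Bmal1 KO minus control difference of each member on the log2(value + 1) scale in females (left) and males (right), in all libraries (black) and without 1 control library (open red: without control female 3 on the left, without control male 6 on the right). In females the open points lie left of the black ones for most members, and the members above 0 go from 31 to 23; in males they lie mostly left too, and the median goes from -0.15 to -0.27.

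Next, the pathway upstream of the early response was counted. Of 14 transcription factors and co-factors (SRF, ELK, MKL, CREB and CRTC genes with the EGR co-repressors Nab1 and Nab2), 0 were called for Bmal1 KO in either sex and 0 followed Fos. Between the sexes in controls 2 were higher in females, such as Atf1 (0.48), and 4 lower, among them Nab2 (-0.78, adjusted p 0.000234) and the CREB coactivators Crtc2 (-0.39) and Crtc1 (-0.54). Of 19 genes of the ERK cascade 0 were called for Bmal1 KO and 0 followed Fos, while 4 were higher and 2 lower in control females, all by at most 0.41 (Spred2, a feedback inhibitor). Of 8 p38 and JNK kinase genes only Map2k3 was called in controls (0.42, higher in females). In Bmal1 KO, sex calls numbered 0 higher and 2 lower, 3 higher and 2 lower, and 2 higher and 0 lower in these 3 lists. The median difference in controls was 0.00, -0.01 and 0.11 in the 3 lists, against -0.05 over all genes.

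A further 30 early response genes that are not among the 37 were tested. Plk2, Ppp1r15a and Cyr61 followed Fos, and 27 of the 30 had a slope above 0, with a median of 0.31 against 0.00 over all genes. In controls 10 were lower in females, with the smallest adjusted p in Plk3 (-2.24), Errfi1 (-1.47), Ppp1r15a (-1.10) and Sik1 (-1.56). The 6 that were higher in control females were Ccl2 (1.60), Il6 (1.49), Thbs1 (1.23), Cebpb (1.13), Mcl1 (0.41) and Rhob (0.25), named after their values were seen. The median over the 30 was 0.04, with 15 above 0, and in Bmal1 KO 6 were lower and 4 higher. Gem, a small GTPase, was higher in Bmal1 KO of both sexes (0.98 ± 0.14 SE in females, adjusted p 0.000211, and 0.74 ± 0.14 SE in males, adjusted p 0.00632), and Errfi1, an inhibitor of the EGF receptor, was lower in Bmal1 KO males (-0.66, adjusted p 0.0405).

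Heat shock genes and glucocorticoid targets were counted as signs of stress at collection. Of 7 heat shock genes 0 followed Fos (median slope 0.15, 6 above 0). Over the 20 libraries Hspa1a lay between 418 and 828 and Hspa1b between 767 and 1633. The 7 summed to 44861 to 56153 normalised reads in control females and 29839 to 58125 in Bmal1 KO females. In males the sums were 30297 to 45443 in controls and 27712 to 30801 in Bmal1 KO. Hspa8 was lower in Bmal1 KO males (-0.74, adjusted p 0.0495). In control females Hspb1 was lower (-1.50) and Hspa8 (0.59) and Hsp90aa1 (0.46) higher than in control males, and the same 3 were called in the same directions in Bmal1 KO. Of 10 glucocorticoid receptor targets 0 followed Fos, with 10 slopes above 0 and a median of 0.19; Cdkn1a was higher in Bmal1 KO of both sexes, and Sgk1 was higher and Errfi1 lower in Bmal1 KO males. In control females Per1 (-1.51), Fkbp5 (-1.67) and Zbtb16 (-2.27) of this list were lower than in control males, alongside Errfi1, while Cdkn1a was higher (1.09, adjusted p 0.000148). The same 5 were called in the same directions in Bmal1 KO. Of 13 mitochondrially encoded transcripts 0 were called in any comparison, with 0 slopes on Fos above 0 and a median slope of -0.16. Of 11 core clock genes 8 were called for Bmal1 KO in females and 9 in males, and 0 followed Fos. The part of handling, hormone state or sampling time in the differences between libraries was not tested, as the labels give none of these.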

How the data were processed

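RNA from whole mouse adrenals was sequenced from TruSeq RNA libraries, per the labels' protocols. The deposited values are a normalised signal per gene: within each library 100% of them are whole multiples of 1 step (tolerance 0.001 reads), as read counts divided by a size factor are. Per the submitters' processing notes, the tools were DESeq2, featureCounts, Salmon, FastQC and MultiQC, and the genome was GRCm38 (mm10), with no role or version stated. Aligner and strand setting: not given in the sources used here. Symbols, positions and exon lengths came from the GENCODE annotation of GRCm38, and promoter windows from RefSeq.

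The 26612 of 47729 genes that reached a value of 1 in 4 or more libraries were tested with limma 3.58.1 (R 4.3.3, trend) on log2(value + 1), with 1 mean per group over all 20 libraries and Benjamini-Hochberg adjustment over all genes. Fold changes are on that scale, which understates those of low genes. Calls are adjusted p under 0.05. The slope on Fos used the same fit with Fos as a covariate. Self-tests on simulated data preceded the fits. Alternatives used pseudocount 0.1, no filter, edgeR 4.0.16 and DESeq2 1.42.0 on recovered reads, only the groups compared, age, library weights, the replicate number and each library left out; leaving out control female 3 and control male 6 together was chosen after seeing the data. Genes most like Fos were named by adjusted p of the slope, and every member is accounted for. The members and gene lists were chosen with earlier results of these data known.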

Additional observations from a re-analysis of the deposited data

Results flagged for a closer look

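In 7 of 148 groups of member values 1 library lay apart from the rest of its group by Dixon's criterion at 95%, where chance would give about 1 in 20. Egr4 read 6.54 in Bmal1 KO female 1 and 2.76 to 3.6 in the other 4, at the limit of detection. Ier3 read 639.7 in Bmal1 KO female 3, against 401 to 465 in the others, and 868 in Bmal1 KO male 2, against 694 to 721. Dusp5 read 453 in Bmal1 KO male 3, against 364 to 371 in the others. Zfp36 was low at 1026 in Bmal1 KO female 4, against 1165 to 1218, and at 1692 in Bmal1 KO male 1, against 2609.9 to 2677. Maff read 138 in control female 5, against 45 to 57.1 in the others. Control female 3 and control male 6 met the criterion for no member.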

How the results depend on the processing

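No member result changed sign with a call on either side in 6366 recomputations: 6238 kept their side of the threshold, 92 lost a call and 36 gained one. In each comparison below, the cause of the change was not tested. With DESeq2, 906 genes were called for Bmal1 KO in females, 730 in males and 70 in the interaction, against 467, 354 and 8. Fitting only the groups compared gave 195 genes in males, 0 members there and 20 members between the sexes in Bmal1 KO. Age as a covariate gave 3746 genes between the sexes in controls and 0 in the interaction, and library weights gave 13 in the interaction. For Bmal1 KO in males, 2 members were called by DESeq2, 2 by edgeR, 0 with no filter and 3 without control female 3 and control male 6. For the slope on Fos, females only gave 2 genes (2 members), males only 4 (2 members), and leaving out control female 3 and control male 6 gave 6 (5 members).

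The replicate numbers are shared by the groups, and same-numbered libraries correlated at -0.06 to 0.14 over 9 pairs of libraries, with 3 of 9 best matched by their own number, so the numbers were not taken as pairs. With the number as a block, 2 members were called for Bmal1 KO in males, and 4 genes, all 4 of them members, for the slope on Fos.

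Leaving out 1 library at a time gave 335 to 515 genes for Bmal1 KO in females, 217 to 477 in males, 0 to 16 in the interaction and 16 to 83 for the slope on Fos; members called numbered 0 to 1, 0 to 3, 0 to 0 and 9 to 13, and 17 to 21 and 9 to 12 between the sexes in controls and in Bmal1 KO. At 1.5-fold and 3-fold in place of 2-fold, 41 and 3 member values lay above their group's median and 59 and 6 below. Of all genes, 5.84% to 14.0% per library lay at least 1.5-fold above and 6.99% to 13.1% below. For 3-fold the shares were 0.654% to 2.70% above and 0.9995% to 2.74% below. Taken as shares of all member values, the member counts did not exceed these ranges. Egr4 and Npas4 are limited by depth.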
